A study of Mus musculus with 45 samples.

Results

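A set of 10 transcription factor genes that promote or oppose T follicular helper (Tfh) fate was followed across sorted lymph node populations. The genes were Bcl6, Prdm1, Maf, Ascl2, Tcf7, Lef1, Tox, Tox2, Batf and Bhlhe40, read in T, germinal center (GC) B and other B cells. They were chosen by symbol, and all 10 were found once among the 55450 genes of the count table. RNA-sequencing covered 45 samples of the draining popliteal lymph nodes of mice given 20 µL of an emulsion of incomplete Freund's adjuvant with 50 µg ovalbumin and 5 µg LPS in the hind footpad. Tfh cells (TCRβ+ CD4+ PD1+ CXCR5+) and non-Tfh CD4+ T cells (PD1- CXCR5-) were sorted on day 6, and GC B cells (B220+ GL7+ Fas+) and non-GC B cells (GL7- Fas-) on day 9, so the day and the lineage cannot be told apart. Each population came from WT and from S1PR4-/- mice, with 6 samples a group except 5 of WT and 4 of S1PR4-/- non-GC B cells. The S1PR4-/- mice carried the B6.129P2-S1pr4tm1Dgen/J allele, a constitutive knockout present in every cell of the animal, after at least 10 backcrosses to C57/BL6. The WT mice were their littermates, both sexes were used, and ages were 8 to 12 weeks.

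BCL6 is a transcriptional repressor that Tfh and GC B cells both require, and Blimp-1, the product of Prdm1, drives plasma cell differentiation in B cells and effector differentiation in T cells. Both proteins repress each other's genes. TCF-1 (Tcf7) and LEF-1 (Lef1) are related factors of naive and memory T cells that act upstream of Bcl6 in early Tfh cells. Ascl2 induces Cxcr5, c-Maf (Maf) supports Il21 and Il4 expression, Batf forms AP-1 dimers that bind DNA with IRF4, Tox and Tox2 are high mobility group factors linked to sustained T cell stimulation, and Bhlhe40 is a basic helix-loop-helix repressor of activated lymphocytes.

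Library totals ran from 26299429 to 45548215 expected counts (median 34188292). S1pr4 had 505 to 6305 counts in every WT sample, 10 to 40 in S1PR4-/- T cells and 0 to 6 in S1PR4-/- B cells. Marker sums followed the sorts, which set them in part. Cxcr5 and Pdcd1 among the Tfh markers and Fas among the GC markers encode proteins that defined the gates. The 6 Tfh markers summed to 2253 to 3327 CPM (read counts divided by the TMM-adjusted library total, on the usual CPM scale) in Tfh and 211 to 481 in non-Tfh samples, and the 6 GC markers to 1304 to 2269 in GC B and 16.2 to 23.8 in non-GC B samples. The 12 B cell markers were at 149.95 to 465 CPM in Tfh and 11.6 to 53.3 in non-Tfh samples, against 7818 to 16722 in the B cell samples. Samples with more Ddx3y than Xist counts, as in males, were 1 of 6 in WT and 4 of 6 in S1PR4-/- Tfh cells, with the same numbers in non-Tfh cells. In bulk samples, fewer cells that express a gene and less RNA per cell cannot be told apart.

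The windows around the annotated starts of Bcl6 and Prdm1 are shown because these genes make the antagonistic pair that the comparisons turn on. They run from 250 bases before to 50 bases after a start, from RefSeq on GRCm38.p6. Of the 10 genes, 7 had such windows, 16 in all. Both Bcl6 windows lie on the minus strand, at chr16:23988803-23989102 (start 1) and at chr16:23981234-23981533 (start 2, inside the gene), and the Prdm1 window on the minus strand at chr10:44458699-44458998. The Prdm1 window also lies inside its gene, which is annotated from 44437177 to 44528501. Capitals mark matches on either strand to 7 short motifs, namely TTCNNNGAA (the spaced palindrome of STAT-type sites), GAAAG (Blimp-1 core), TGCTGA (MAF-type core), CAGCTG (E-box of the ASCL type), CTTTGA (TCF/LEF core), TGANTCA (AP-1 site) and CACGTG (E-box of the BHLHE type).
Bcl6 start 1: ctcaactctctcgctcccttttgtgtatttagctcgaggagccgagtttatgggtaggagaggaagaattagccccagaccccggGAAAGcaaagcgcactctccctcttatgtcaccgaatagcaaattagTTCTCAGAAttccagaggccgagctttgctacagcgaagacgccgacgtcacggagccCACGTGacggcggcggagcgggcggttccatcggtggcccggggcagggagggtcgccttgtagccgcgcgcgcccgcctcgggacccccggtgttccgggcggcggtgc
Bcl6 start 2: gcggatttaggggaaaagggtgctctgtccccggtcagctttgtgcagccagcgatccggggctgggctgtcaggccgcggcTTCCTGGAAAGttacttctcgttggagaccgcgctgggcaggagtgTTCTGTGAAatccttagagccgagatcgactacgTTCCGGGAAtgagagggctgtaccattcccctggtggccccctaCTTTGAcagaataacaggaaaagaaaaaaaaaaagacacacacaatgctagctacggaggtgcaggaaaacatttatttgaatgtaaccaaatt
Prdm1 start 1: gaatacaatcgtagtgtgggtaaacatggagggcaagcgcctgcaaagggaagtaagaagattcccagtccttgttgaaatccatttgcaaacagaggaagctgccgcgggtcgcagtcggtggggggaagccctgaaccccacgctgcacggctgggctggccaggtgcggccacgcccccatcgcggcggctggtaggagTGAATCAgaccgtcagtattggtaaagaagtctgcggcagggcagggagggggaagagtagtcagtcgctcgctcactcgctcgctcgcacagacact
The Bcl6 windows held 4 matches to TTCNNNGAA, 1 at start 1 and 3 at start 2. This motif occurred in 8.30% of all 32851 windows and in 2 of the 16 of the 10 genes, both of them those of Bcl6. GAAAG occurred in both Bcl6 windows, once overlapping a palindrome, but also in 57.3% of all windows. CACGTG, found in 7.15% of all windows, was matched once at Bcl6 start 1, and CTTTGA, found in 16.0%, once at start 2. The Prdm1 window held 1 match, to TGANTCA, 48 bases before the start, a motif in 7.81% of all windows. Neither TGCTGA (19.5% of all windows) nor CAGCTG (16.3%) was matched in the 3 windows. A match describes letters only and no binding was measured.

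The 10 genes fell into distinct level patterns over the 4 WT populations, as the plot of log2 CPM by sample shows. Per kilobase of exon, which allows genes to be compared, Tcf7 was the highest of the 10 in WT Tfh cells at 697 CPM per kilobase, followed by Batf at 163 and Tox2 at 143. Bcl6 was at 17.9, Ascl2 at 7.87 and Prdm1 was the lowest at 3.75 CPM per kilobase. In WT GC B cells Bcl6 led at 28.8 CPM per kilobase, ahead of Batf at 18.5 and Bhlhe40 at 10.95. Ordering the 4 WT populations by each gene's mean gave 30 neighbour pairs, of which 21 differed at an adjusted p under 0.05 in edgeR's quasi-likelihood fit over all 8 groups. Of all genes tested, 60.7% passed that threshold between Tfh and non-Tfh cells, 62.9% between GC B and non-GC B, 61.5% between Tfh and GC B, 71.5% between Tfh and non-GC B, 72.4% between non-Tfh and GC B and 57.2% between non-Tfh and non-GC B cells. The order was GC B, non-GC B, Tfh, non-Tfh for Bcl6, with non-GC B and Tfh cells not told apart (adjusted p = 0.534, edgeR). For Prdm1 it was GC B, Tfh, non-Tfh, non-GC B, and the 3 highest populations were not told apart from their neighbours (adjusted p = 0.343 and 0.377, edgeR). Maf (Tfh, non-Tfh, non-GC B, GC B), Lef1 (non-Tfh, Tfh, non-GC B, GC B), Tox (Tfh, non-Tfh, GC B, non-GC B) and Tox2 (Tfh, GC B, non-Tfh, non-GC B) had an order in which every neighbour pair differed. Tcf7 separated T from B cells, with neither non-Tfh from Tfh (adjusted p = 0.560, edgeR) nor non-GC B from GC B cells (0.174) told apart. Batf ran from Tfh over non-Tfh to GC B and non-GC B cells, the last pair not told apart (adjusted p = 0.108, edgeR). Bhlhe40 ran from Tfh over non-GC B and GC B to non-Tfh cells, and only its last step passed (adjusted p = 0.205 and 0.255 for the others, edgeR). Ascl2 was highest in Tfh and next in GC B cells, and non-Tfh and non-GC B cells were not told apart (adjusted p = 0.295, edgeR).

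**Figure D1:**
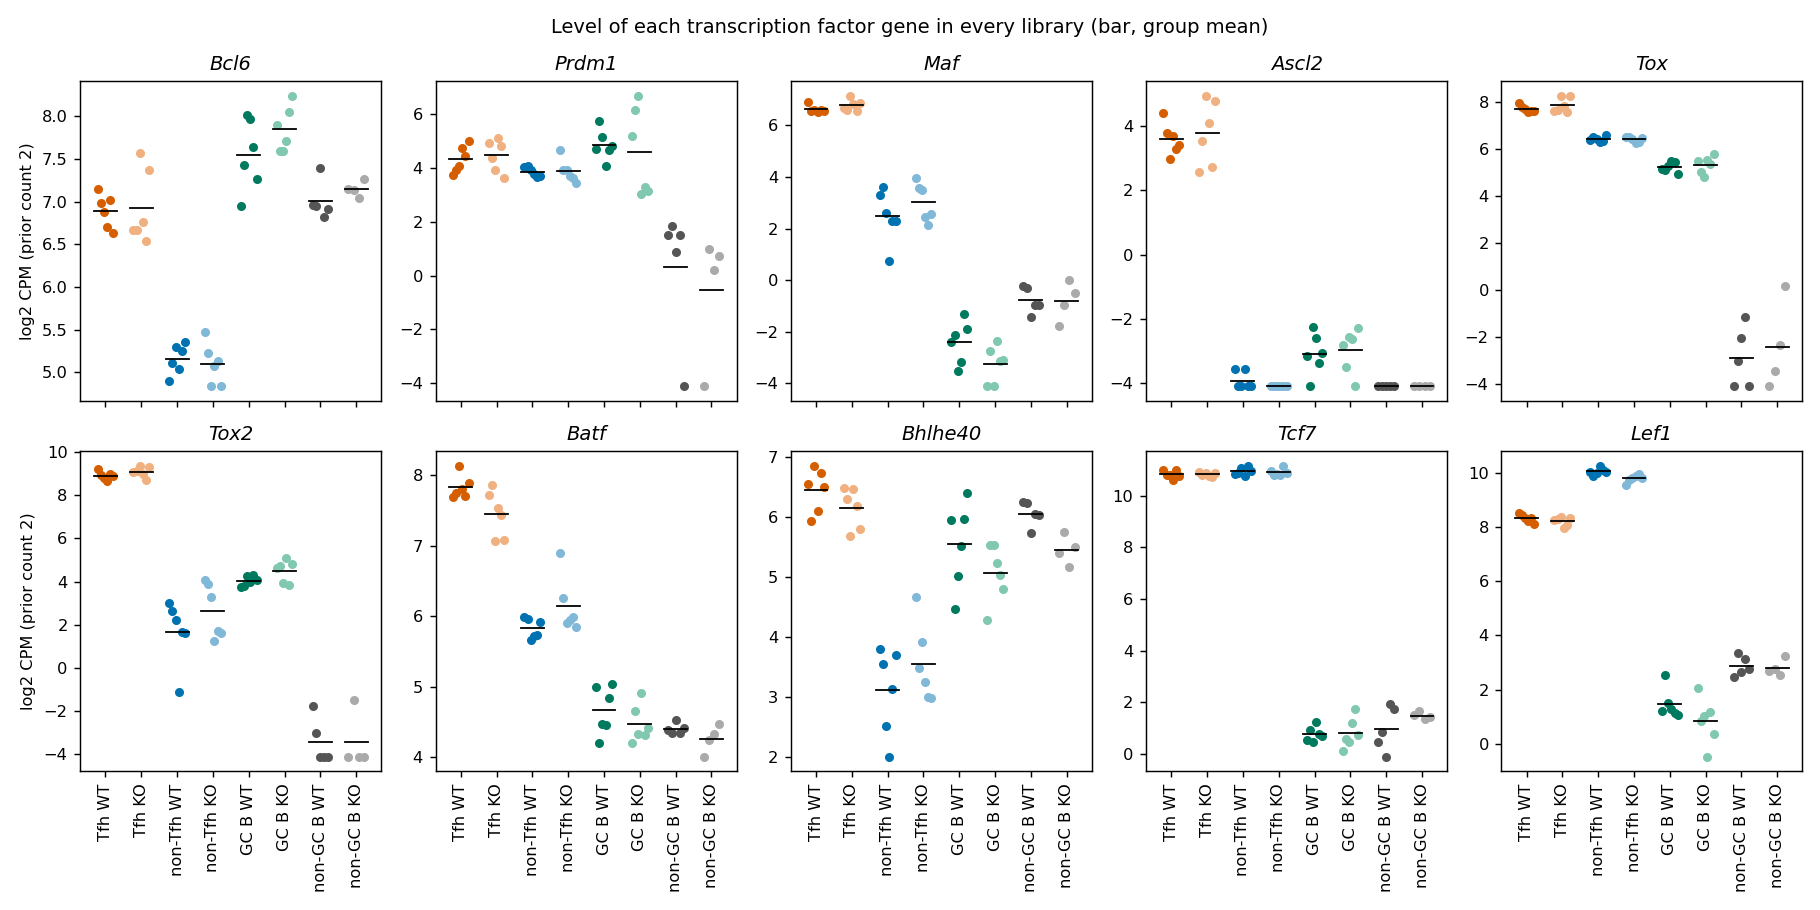
Level of each of the 10 genes in every sample, as log2 CPM with a prior count of 2 on the vertical axis, with its own scale in each panel, and the 8 groups of population and genotype (KO, S1PR4-/-) on the horizontal axis. Points are samples and bars are group means. Bcl6 is lowest in non-Tfh cells, Prdm1 in non-GC B cells, and Ascl2 lies above 2 on this scale in Tfh samples only.

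Tfh cells were compared with non-Tfh cells to see which of the 10 genes set the sorted populations apart. In WT mice 7 genes were higher in Tfh cells (Bcl6, Maf, Ascl2, Tox, Tox2, Batf and Bhlhe40), Lef1 was lower, and Prdm1 and Tcf7 did not pass, at an adjusted p under 0.05 and a fold change over 1.5 in edgeR's quasi-likelihood test. Of the 13481 genes tested, 43.2% passed, 22.8% higher and 20.4% lower. The same 8 genes passed in the same directions in S1PR4-/- mice, and Prdm1 passed as well, higher in Tfh cells, where 43.4% of all genes passed, 22.3% higher and 21.1% lower. The gates used CXCR5 and PD1 protein and none of these genes.

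Bcl6 (ENSMUSG00000022508.5, chromosome 16 from 23965052 to 23988852 in mm10, minus strand), the lineage-defining repressor, was at 99.5 to 141 CPM (median 122) in WT Tfh and 29.7 to 40.9 CPM (median 36.3) in WT non-Tfh samples. The groups did not overlap, with means of 119.8 ± 15.9 CPM (SD, n = 6) and 35.8 ± 4.22 CPM (SD, n = 6) (log2 fold change 1.74, SE 0.0997, adjusted p = 1.59e-09, edgeR). S1PR4-/- mice had 92.9 to 189 CPM (median 105) in Tfh and 28.5 to 44.4 CPM (median 34.2) in non-Tfh samples (log2 fold change 1.89, SE 0.184, adjusted p = 5.45e-07, edgeR). The higher S1PR4-/- Tfh samples were replicates 3 and 6, at 189 and 165 CPM, while the other 4 lay between 92.9 and 109 CPM.

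Prdm1 (ENSMUSG00000038151.13, chromosome 10 from 44437177 to 44528501, minus strand), which encodes the antagonist Blimp-1, overlapped between the T cell populations. It was at 13.1 to 32.3 CPM (median 19.2) in WT Tfh and 12.7 to 16.6 CPM (median 14.5) in WT non-Tfh samples (log2 fold change 0.52, SE 0.191, adjusted p = 0.0245, edgeR), and its fold change of 1.44 did not reach the limit of 1.5. Without WT Tfh replicate 1 or 2 it passed (log2 fold change 0.62 and 0.60, adjusted p = 0.00641 and 0.0132, edgeR). Prdm1 in S1PR4-/- mice was at 12.4 to 34.5 CPM (median 24.2) in Tfh and 10.8 to 25.5 CPM (median 13.9) in non-Tfh samples (log2 fold change 0.64, SE 0.254, adjusted p = 0.0363, edgeR). The S1PR4-/- call was lost in 11 alternatives, among them leaving out any of 8 single samples, normalizing by total counts (adjusted p = 0.058, edgeR) and a regulatory T cell marker score as a covariate (adjusted p = 0.0654, edgeR). The WT difference was 0.17 on the log2 scale with that covariate (adjusted p = 0.539, edgeR).

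The balance of the antagonists was given in each sample as the log2 ratio of Bcl6 to Prdm1 counts, with 0.5 added to each count. It was 2.58 ± 0.67 in WT Tfh and 1.3 ± 0.3 in WT non-Tfh samples (SD, n = 6 each), a difference of 1.28 (adjusted p = 0.0115, two-sided exact permutation test over the 8 comparisons of this ratio). The ratio in S1PR4-/- mice was 2.47 ± 0.97 in Tfh and 1.22 ± 0.29 in non-Tfh samples, a difference of 1.25 (adjusted p = 0.0115, same exact permutation test). Prdm1 means were higher, not lower, in Tfh cells of both genotypes, so the higher ratio came with the higher Bcl6 level.

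Ascl2 (ENSMUSG00000009248.6, chromosome 7 from 142966829 to 142969264, minus strand), an inducer of Cxcr5, came closest to presence in Tfh cells alone. It was at 7.84 to 21.5 CPM (median 11.8) in WT and 5.92 to 31.1 CPM (median 14.4) in S1PR4-/- Tfh samples. The 6 WT non-Tfh samples held 2 counts in all, against 2816 in WT Tfh samples, a ratio of normalized counts of 1331 (exact 95% interval 368 to 10994, counting error only). All 6 S1PR4-/- non-Tfh samples were at 0, and S1PR4-/- Tfh cells were at least 1053-fold higher, with a floor of 3 counts over the group. GC B samples held 0 to 5 counts each and non-GC B samples none, so the WT Tfh level was 183 times (109 to 336) that of WT GC B cells and at least 692-fold higher than that of WT non-GC B cells.

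Maf and the pair Tox and Tox2 were higher in Tfh cells by very different amounts. Maf (ENSMUSG00000055435.6, chromosome 8 from 115682942 to 115707794, minus strand) was at 90.8 to 120.3 CPM (median 94.7) in WT Tfh and 1.62 to 12.2 CPM (median 5.45) in WT non-Tfh samples (log2 fold change 3.91, SE 0.333, adjusted p = 9.10e-08, edgeR). Tox2 (ENSMUSG00000074607.11, chromosome 2 from 163203125 to 163324170, plus strand) rose from 0.397 to 7.99 CPM (median 3.82) in WT non-Tfh to 408 to 593 CPM (median 481) in WT Tfh samples (log2 fold change 6.86, SE 0.424, adjusted p = 3.41e-09, edgeR). Its relative Tox (ENSMUSG00000041272.11, chromosome 4 from 6686353 to 6991557, minus strand) was already present in non-Tfh samples, at 78.2 to 98.4 CPM (median 85.5), and reached 193 to 248 CPM (median 206) in Tfh samples (log2 fold change 1.29, SE 0.0743, adjusted p = 1.73e-09, edgeR). The log2 fold changes in S1PR4-/- mice were 3.63 for Maf, 6.08 for Tox2 and 1.5 for Tox (adjusted p = 4.99e-08, 6.47e-08 and 1.19e-07, edgeR). All 3 genes had no overlap between Tfh and non-Tfh samples in either genotype.

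Batf and Bhlhe40, factors of activated lymphocytes, were also higher in Tfh cells. Batf (ENSMUSG00000034266.6, chromosome 12 from 85686669 to 85709087, plus strand) was at 207 to 281 CPM (median 219.5) in WT Tfh and 50.7 to 63.6 CPM (median 56.8) in WT non-Tfh samples (log2 fold change 2.00, SE 0.0875, adjusted p = 1.27e-10, edgeR). The ranges in S1PR4-/- mice were 134 to 233 CPM (median 179) and 57.6 to 119 CPM (median 62.5), with the non-Tfh replicate 1 at 119 CPM and the other 5 no higher than 76.3 (log2 fold change 1.31, SE 0.186, adjusted p = 2.28e-05, edgeR). Bhlhe40 (ENSMUSG00000030103.11, chromosome 6 from 108660629 to 108666925, plus strand) was at 61.0 to 116 CPM (median 92.2) in WT Tfh and 3.95 to 13.9 CPM (median 10.2) in WT non-Tfh samples (log2 fold change 3.24, SE 0.277, adjusted p = 9.48e-08, edgeR). Its S1PR4-/- difference had the same direction (log2 fold change 2.53, SE 0.272, adjusted p = 1.41e-06, edgeR).

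The TCF-1 and LEF-1 genes, close relatives, behaved unlike each other between Tfh and non-Tfh cells. Tcf7 (ENSMUSG00000000782.15, chromosome 11 from 52252371 to 52283014, minus strand) was at 1570 to 2054 CPM (median 1788) in WT Tfh and 1750 to 2303 CPM (median 1948) in WT non-Tfh samples, overlapping ranges (log2 fold change -0.12, SE 0.0774, adjusted p = 0.17, edgeR, 95% interval -0.27 to 0.03). Lef1 (ENSMUSG00000027985.14, chromosome 3 from 131110471 to 131224356, plus strand) fell from 959 to 1237 CPM (median 1063) in WT non-Tfh to 275 to 372 CPM (median 322) in WT Tfh samples (log2 fold change -1.73, SE 0.0785, adjusted p = 1.68e-10, edgeR). Tcf7 in S1PR4-/- mice differed by -0.08 (95% interval -0.21 to 0.06) and Lef1 by -1.56 on the log2 scale (adjusted p = 0.33 and 2.39e-09, edgeR). Lef1 exons overlap the antisense gene Gm43352, which held 16741 counts against 569497 for Lef1 over all samples, and whether the counting used strand is not given in the sources used here.

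**Figure D2:**
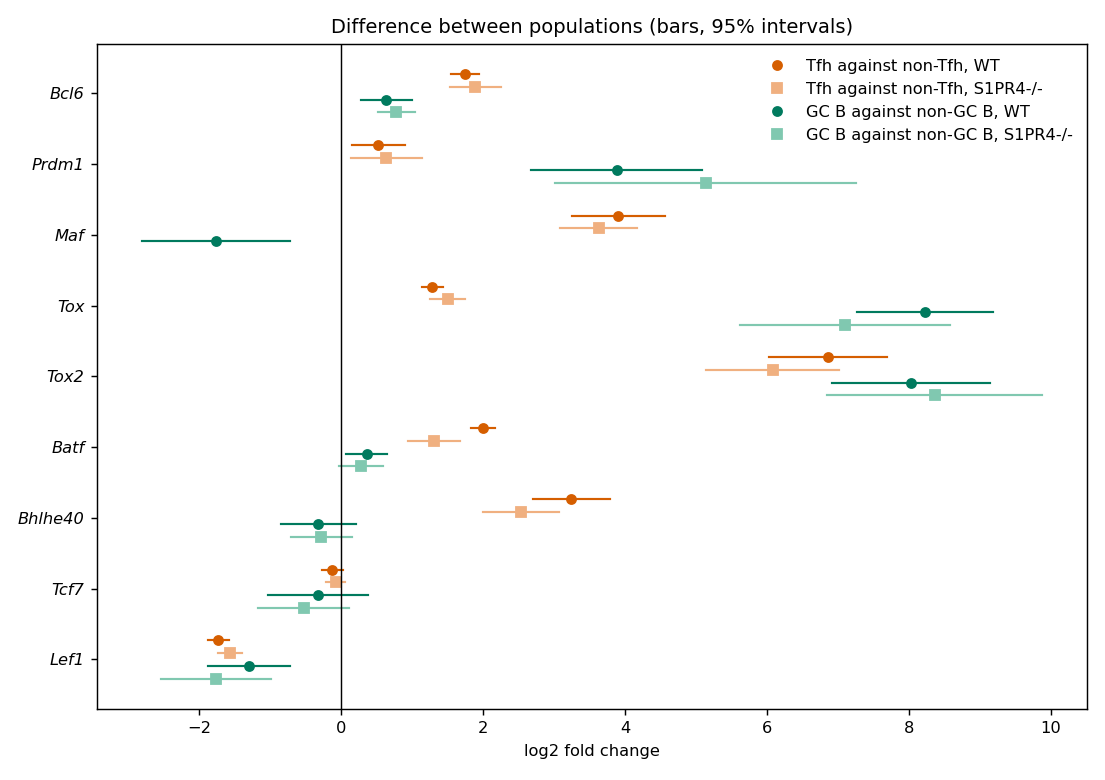
Log2 fold change of 9 of the 10 genes between Tfh and non-Tfh or GC B and non-GC B cells, in WT (circles) and S1PR4-/- mice (squares). Bars are approximate 95% intervals derived from edgeR's quasi-likelihood tests. Bcl6, Prdm1, Tox and Tox2 lie to the right of 0 in all 4 comparisons and Lef1 to the left, while Maf, Batf and Bhlhe40 lie far to the right in T cells only. Ascl2 is left out because its non-Tfh and non-GC B counts are at or near 0, and Maf was not tested in S1PR4-/- B cells.

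The same genes were compared in GC B against non-GC B cells, since BCL6 and Blimp-1 oppose each other in B cells too. In WT mice 9 of the 10 genes passed the filter on low counts, and 6 passed the test, Bcl6, Prdm1, Tox and Tox2 higher and Maf and Lef1 lower, where 47.8% of all genes tested passed (24.8% higher and 23.1% lower). Of 8 genes tested in S1PR4-/- mice 5 passed, the same without Maf, where 48.2% of all genes did (25.3% higher and 22.9% lower). Batf, Bhlhe40 and Tcf7 passed in neither genotype.

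Bcl6 was at 124 to 258 CPM (median 186) in WT GC B samples and at 124, 124, 168, 113 and 121 CPM in the 5 WT non-GC B samples. The groups overlapped at the low end of the GC B range (log2 fold change 0.64, SE 0.183, adjusted p = 0.00796, edgeR), and the fold change was under 1.5 when GC B replicate 3 or 4 was left out. S1PR4-/- mice had 192 to 303 CPM (median 224) in GC B samples and 142, 141, 132 and 154 CPM in the 4 non-GC B samples, without overlap (log2 fold change 0.78, SE 0.132, adjusted p = 3.17e-04, edgeR). Bcl6 transcript in non-GC B cells of both genotypes was above the level of every non-Tfh sample.

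Prdm1 had the steeper difference in B cells. It was at 16.9 to 53.9 CPM (median 26.9) in WT GC B samples, and at 2.82, 3.51, 1.79, 2.82 and 0 CPM in the 5 WT non-GC B samples, the last of which is listed at 0 counts (log2 fold change 3.88, SE 0.613, adjusted p = 1.06e-04, edgeR). In S1PR4-/- GC B samples it split by replicate, at 36.0, 71.8 and 103 CPM in replicates 1 to 3 and 8.22, 9.84 and 8.68 CPM in replicates 4 to 6. The S1PR4-/- non-GC B samples were at 0, 1.95, 1.10 and 1.60 CPM, the first listed at 0 counts (log2 fold change 5.13, SE 1.08, adjusted p = 0.00147, edgeR). With GC B replicates 4 to 6 alone, an alternative chosen after seeing the data, the log2 fold change was 3.00 (adjusted p = 0.0116, edgeR).

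Plasma cell markers moved with Prdm1 in the GC B gate, which did not include CD138. The 8 plasma cell markers summed to 4417 to 9123 CPM in WT GC B, 2342 to 18169 in S1PR4-/- GC B and 930 to 1268 in non-GC B samples, and all 8 had counts in every GC B sample. Sdc1, which encodes CD138, was at 105 to 268 CPM in S1PR4-/- GC B replicates 1 to 3 and 9.61 to 19.2 CPM in replicates 4 to 6. With a plasma cell marker score as a covariate the B cell difference in Prdm1 was 0.97 in WT (adjusted p = 0.844, edgeR) and 1.46 in S1PR4-/- mice (adjusted p = 0.139, edgeR) on the log2 scale. That score separated GC B from non-GC B samples in both genotypes, so the score and the comparison cannot be told apart.

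The log2 ratio of Bcl6 to Prdm1 counts ran the opposite way in B cells from T cells. It was 2.69 ± 0.75 (SD, n = 6) in WT GC B and 7.04 ± 3.23 (SD, n = 5) in WT non-GC B samples (adjusted p = 0.0115, exact permutation test). In S1PR4-/- mice it was 3.27 ± 1.84 (SD, n = 6) in GC B and 8.17 ± 3.26 (SD, n = 4) in non-GC B samples (adjusted p = 0.0190, exact permutation test). The samples with 0 Prdm1 counts set the highest ratios, and without each of them the difference was -2.92 in WT and -3.28 in S1PR4-/- mice.

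**Figure D3:**
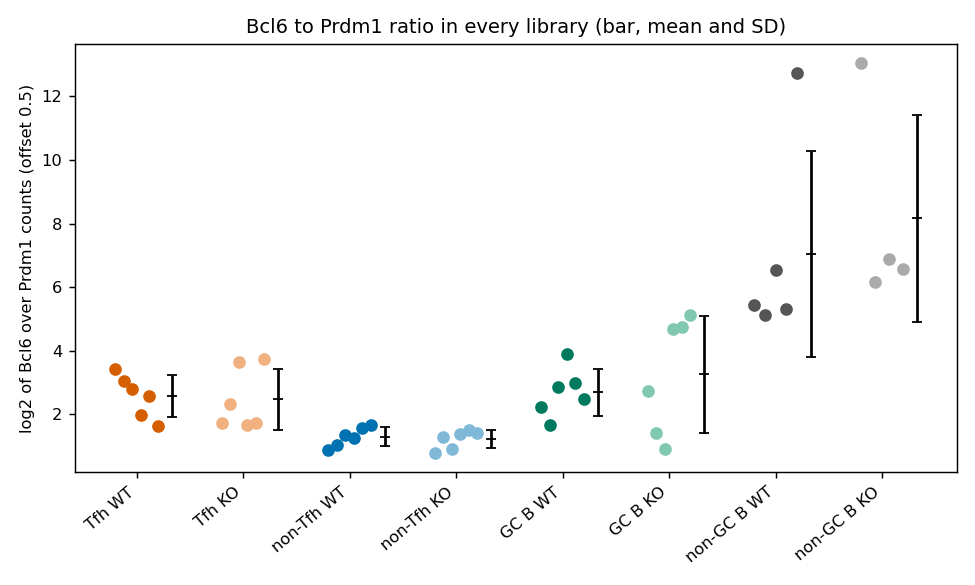
Log2 ratio of Bcl6 to Prdm1 counts (0.5 added to each) in every sample on the vertical axis and the 8 groups on the horizontal axis, with bars for the group mean and SD. The mean ratio is higher in Tfh than in non-Tfh samples, with 1 WT Tfh sample inside the WT non-Tfh range, and lower in GC B than in non-GC B samples, and the 2 points above 12 are the non-GC B samples with no Prdm1 count.

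Tox and Tox2 were near absent from non-GC B cells and clearly present in GC B cells. Tox was at 30.7 to 45.2 CPM (median 37.7) in WT GC B samples and held 0 to 12 counts in each WT non-GC B sample (log2 fold change 8.22, SE 0.489, adjusted p = 2.82e-08, edgeR). Tox2 was at 13.6 to 19.6 CPM (median 16.3) in WT GC B samples, with 0 to 8 counts in each WT non-GC B sample (log2 fold change 8.03, SE 0.569, adjusted p = 1.19e-07, edgeR). In S1PR4-/- mice Tox was at 28.1 to 55.7 CPM (median 43.3) and Tox2 at 14.1 to 34.0 CPM (median 25.4) in GC B samples (adjusted p = 8.97e-06 and 3.11e-06, edgeR). The size of these differences rests on the few non-GC B counts. Without WT non-GC B replicate 4 it was 9.12 for Tox and without replicate 1 it was 9.77 for Tox2 on the log2 scale. It went from 7.10 to 9.34 for Tox without S1PR4-/- non-GC B replicate 4, and from 8.36 to 12.6 for Tox2 without replicate 2. The 12 T cell markers summed to 121 to 202 CPM in GC B and 66.2 to 129 in non-GC B samples, against at least 9008 in T cell samples, and the part of T cell RNA in the Tox and Tox2 counts was not tested.

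The other genes were low or alike in B cells. Lef1 was at 2.03 to 5.80 CPM (median 2.33) in WT GC B and 5.51, 10.2, 6.25, 8.70 and 6.68 CPM in WT non-GC B samples (log2 fold change -1.29, SE 0.294, adjusted p = 0.00173, edgeR). Maf held 1 to 9 counts in WT GC B and 12 to 27 counts in WT non-GC B samples (log2 fold change -1.76, SE 0.531, adjusted p = 0.0104, edgeR). Tcf7 was at 0.867 to 3.74 CPM in every B cell sample. Batf was at 18.3 to 32.9 CPM (median 25.5) in WT GC B and 20.2 to 23.0 CPM in WT non-GC B samples, a fold change under 1.5 (log2 fold change 0.36, SE 0.146, adjusted p = 0.0436, edgeR). Bhlhe40 was at 21.97 to 84.2 CPM (median 53.9) in WT GC B and 53.0 to 75.9 CPM in WT non-GC B samples (log2 fold change -0.32, SE 0.268, adjusted p = 0.304, edgeR, 95% interval -0.85 to 0.20).

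The Tfh minus non-Tfh difference (T cell step) was compared with the GC B minus non-GC B difference (B cell step) in WT mice. The value tested was the T cell step less the B cell step, so its sign alone does not tell which step was larger in size. Of the 10 genes, 6 passed at an adjusted p under 0.05, where 41.7% of all genes did, 21.4% with a positive and 20.3% with a negative value. This value was 1.17 for Bcl6, 1.70 for Batf, 3.62 for Bhlhe40 and 5.77 for Maf on the log2 scale (adjusted p = 1.07e-04, 3.12e-08, 3.03e-07 and 1.72e-07, edgeR). Maf was higher in Tfh than in non-Tfh cells (3.91) but lower in GC B than in non-GC B cells (-1.76), so its steps had opposite directions. The value was negative for Prdm1 (-3.29) and Tox (-6.87, adjusted p = 1.35e-04 and 7.54e-13, edgeR). Tox2, Lef1 and Tcf7 did not pass, with 95% intervals of -3.19 to 0.97, -0.89 to 0.17 and -0.38 to 0.87, nor did Ascl2, whose counts are at or near 0 in 3 of the 4 groups.

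S1PR4-/- and WT mice were compared within each population to see whether S1PR4 deficiency altered these genes. None of the 10 passed in Tfh, 0 of 9 tested in non-Tfh, 0 of 8 in GC B and 0 of 7 in non-GC B cells by edgeR, where 0.496%, 0.114%, 0.0612% and 0.0537% of all genes passed. At an unadjusted p under 0.05 there were 1 of 10, 2 of 9, 1 of 8 and 1 of 7 of these genes tested. The shares of all genes tested were 19.2%, 11.3%, 4.13% and 4.55%. DESeq2 called 1 of the 10, Bhlhe40 in non-GC B cells. The plot of genotype differences shows intervals that mostly include 0.

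**Figure D4:**
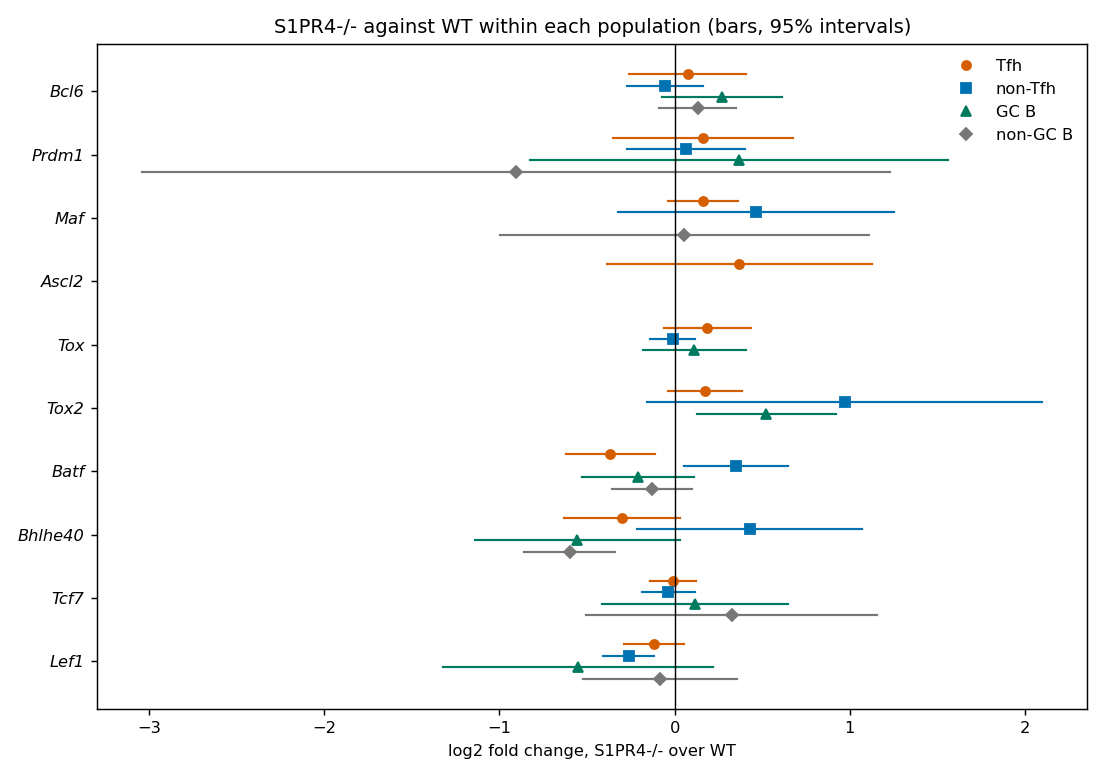
Log2 fold change of each gene in S1PR4-/- over WT samples within each of the 4 populations (no point where the gene did not pass the filter on low counts). Bars are approximate 95% intervals derived from edgeR's quasi-likelihood tests. Most intervals include 0, and the widest are those of Prdm1 in non-GC B cells and in GC B cells and of Tox2 in non-Tfh cells.

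Bcl6 differed by 0.07 on the log2 scale in Tfh cells (95% interval -0.26 to 0.41), -0.05 in non-Tfh cells (-0.27 to 0.16), 0.27 in GC B cells (-0.07 to 0.61) and 0.13 in non-GC B cells (-0.09 to 0.35). Without Tfh replicates 3 and 6 of the S1PR4-/- mice, the Tfh difference was -0.25 (adjusted p = 0.174, edgeR). Prdm1 differed by 0.16 in Tfh (-0.35 to 0.67), 0.07 in non-Tfh (-0.27 to 0.40), 0.37 in GC B (-0.83 to 1.56) and -0.90 in non-GC B cells (-3.04 to 1.23). In CPM the Prdm1 spread was the widest among these groups in S1PR4-/- GC B samples, with an SD of 39.7 around a mean of 39.6 CPM. On the log2 scale its interval was widest in non-GC B cells. The ratio of Bcl6 to Prdm1 differed between genotypes by -0.11 in Tfh, -0.08 in non-Tfh, 0.58 in GC B and 1.13 in non-GC B cells (adjusted p = 0.814, 0.727, 0.646 and 0.610, exact permutation test).

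Batf had the lowest adjusted p of the 10 genes between genotypes in T cells, with opposite signs in the T cell populations, while Lef1 in non-Tfh cells had the lower unadjusted p. In Tfh cells it was at 207 to 281 CPM (median 219.5) in WT and 134 to 233 CPM (median 179) in S1PR4-/- samples (log2 fold change -0.37, SE 0.129, adjusted p = 0.142, edgeR, unadjusted p = 0.013). In non-Tfh cells it was at 50.7 to 63.6 CPM (median 56.8) and 57.6 to 119 CPM (median 62.5) (log2 fold change 0.35, SE 0.151, adjusted p = 0.4, edgeR, unadjusted p = 0.0356), and without S1PR4-/- replicate 1 this was 0.16. The difference of these effects was -0.72 (SE 0.220, adjusted p = 0.305, edgeR). None of the 10 genes passed this test of the difference, where 0.0139% of all genes did, and Batf was the single one with an unadjusted p under 0.05. Of the 9 genes tested for the same difference in B cells, none passed, with an unadjusted p under 0.05 for 0 of them, and DESeq2 called 0 in both.

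Lef1, Tox2 and Bhlhe40 had single differences of that kind. Lef1 in non-Tfh cells was at 959 to 1237 CPM (median 1063) in WT and 763 to 995 CPM (median 903) in S1PR4-/- samples (log2 fold change -0.26, SE 0.0746, adjusted p = 0.178, edgeR, unadjusted p = 0.00322), and with sex as a term it was -0.19 (adjusted p = 0.732, edgeR). Tox2 in GC B cells was at 13.6 to 19.6 CPM (median 16.3) in WT and 14.1 to 34.0 CPM (median 25.4) in S1PR4-/- samples (log2 fold change 0.52, SE 0.202, adjusted p = 0.985, edgeR). Bhlhe40 in non-GC B cells was at 75.9, 75.1, 53.0, 66.5 and 65.2 CPM in WT and 42.0, 53.5, 35.9 and 45.3 CPM in S1PR4-/- samples, with overlap in 1 S1PR4-/- sample. Its log2 fold change was -0.60 (SE 0.134, 95% interval -0.86 to -0.34, adjusted p = 0.613, edgeR), and DESeq2 gave -0.60 with an adjusted p = 0.0175. Of all fits of single genes between genotypes under the alternatives, 749 in number, this was the one that passed both thresholds.

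The S1PR4-/- and WT Tfh libraries differed in markers of other cells. The 8 plasma cell markers summed to 330 to 705 CPM in WT and 292 to 316 CPM in S1PR4-/- Tfh samples, and the 12 B cell markers to 149.95 to 465 and 151 to 281 CPM. The 12 T cell markers summed to 10207 to 12375 CPM in WT and 9008 to 11242 CPM in S1PR4-/- Tfh samples. The B cell marker score, a mean of log2 CPM, averaged 2.93 (SD 1.43) in WT and 0.549 (SD 1.58) in S1PR4-/- Tfh samples, with S1PR4-/- replicate 3 at 3.39. The 8 myeloid markers summed to 18.5 to 76.5 CPM in WT and 13.6 to 428 CPM in S1PR4-/- Tfh samples, and their score was highest in S1PR4-/- replicate 6 (1.87). The part of these in the Tfh values was not tested.

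Over the Tfh samples of both genotypes, Bcl6 ran against Prdm1 and against the markers of regulatory T cells, which can carry CXCR5 and PD1, while Prdm1 ran with these markers. These relations were examined after the values were seen, 20 in all, on log2 CPM over the 12 Tfh or 12 GC B samples, with Benjamini-Hochberg adjustment over the 20. Bcl6 against Prdm1 in Tfh samples gave Pearson's r = -0.79 and Spearman's rho = -0.76 (adjusted p = 0.00808 for r, permutation test), r = -0.76 without the 2 samples farthest in Prdm1, and r = -0.87 within WT (p = 0.0306) and -0.82 within S1PR4-/- samples (p = 0.0569, exact permutation tests, n = 6 each). Against the score of 6 regulatory T cell markers, Bcl6 gave r = -0.83 and rho = -0.89 (adjusted p = 0.00367, permutation test), with -0.75 without the 2 farthest samples. Within genotypes this was -0.61 in WT (p = 0.192) and -0.92 in S1PR4-/- samples (p = 0.0319, exact permutation tests, n = 6 each), so it did not pass within WT. Prdm1 against this score gave r = 0.87 and rho = 0.85 (adjusted p = 0.00367, permutation test), with 0.84 without the 2 farthest samples, 0.73 in WT (p = 0.0833) and 0.96 in S1PR4-/- samples (p = 0.00972, exact permutation tests, n = 6 each), and did not pass within WT either. Lef1 (r = -0.71, adjusted p = 0.0334, permutation test) and Tox (r = -0.69, adjusted p = 0.0350, permutation test) also passed over the 12 samples, and Maf, Ascl2, Tcf7, Tox2, Batf and Bhlhe40 did not. Foxp3 was at 77.9 and 75.0 CPM in S1PR4-/- Tfh replicates 3 and 6, the 2 samples with the highest Bcl6, and at 86.4 to 191 CPM in the other 10 Tfh samples. Ikzf2, another of the 6 markers, went the other way, at 64.5 and 47.9 CPM in these 2 samples and 34.6 to 48.9 CPM in the other 10. All CPM values share the scaling of their library, and the part of regulatory T cells in these values was not tested.

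Within GC B samples Prdm1 followed the plasma cell marker score, which does not contain Prdm1 (r = 0.98 and rho = 0.97, adjusted p = 0.0002, permutation test, the smallest that 100000 resamples give). Without the 2 samples farthest in the score r was 0.96, and it was 0.88 in WT (p = 0.0347) and 0.99 in S1PR4-/- samples (p = 0.00139, exact permutation tests, n = 6 each). Tox ran against this score (r = -0.82 and rho = -0.77, adjusted p = 0.00625, permutation test), with -0.74 without the 2 farthest samples, -0.61 in WT (p = 0.2) and -0.88 in S1PR4-/- samples (p = 0.0194, exact permutation tests, n = 6 each). Bcl6 against Prdm1 in GC B samples gave r = -0.42 (adjusted p = 0.214, permutation test), and Bcl6, Tcf7, Lef1, Tox2, Batf and Bhlhe40 did not pass against the score.

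**Figure D5:**
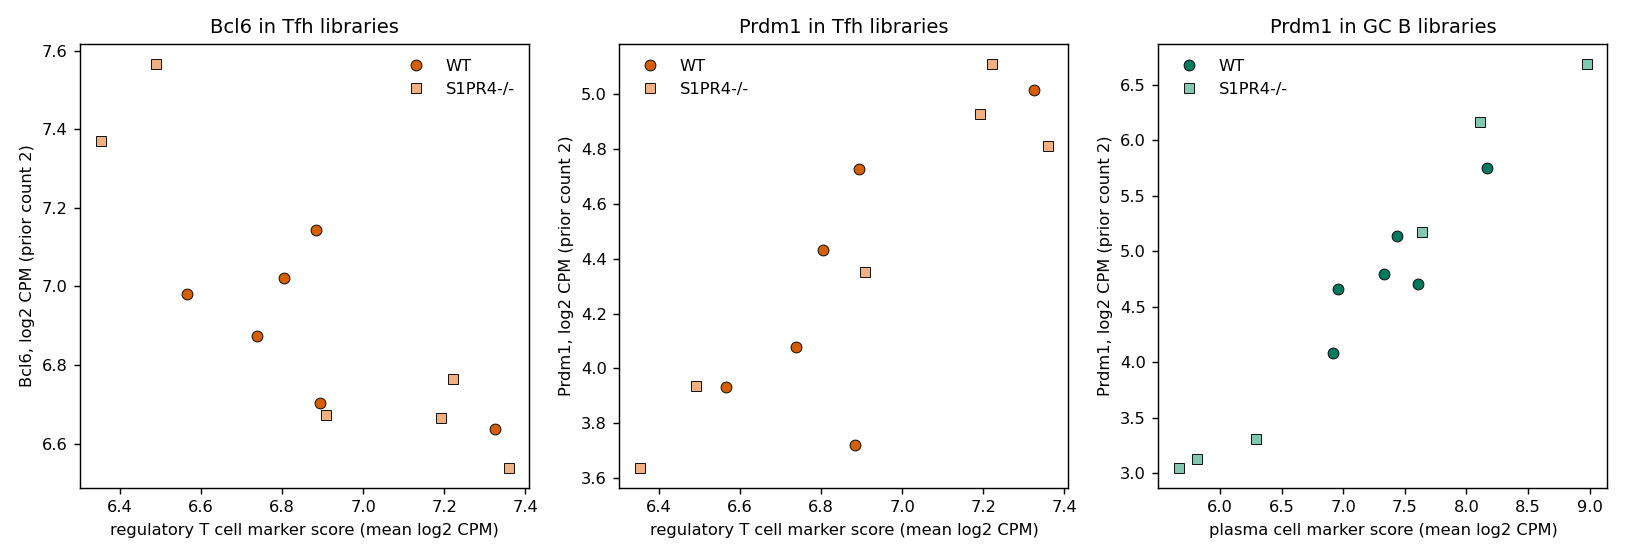
Bcl6 and Prdm1 in the 12 Tfh samples against the regulatory T cell marker score, and Prdm1 in the 12 GC B samples against the plasma cell marker score, all as log2 CPM, with WT samples as circles and S1PR4-/- samples as squares. Bcl6 falls and Prdm1 rises along the regulatory T cell score, and the S1PR4-/- GC B samples take both ends of the plasma cell score.

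The genes that work with the 10 were described from lists of other regulators and targets, whose counts are read against the 22.8% of all genes called higher and 20.4% called lower in WT. Of 18 regulators that promote Tfh differentiation, 8 were higher, 1 lower and 9 not called in WT Tfh against non-Tfh cells, with a median log2 fold change of 0.34 against 0.00 over all genes tested. The highest were Pou2af1, a coactivator of octamer-binding factors (3.79), and Irf4, the DNA-binding partner of Batf (2.26), followed by Egr2 (1.84) and the calcium-regulated factor Nfatc1 (1.75). Pou2af1 is also on the GC B list below and Irf4 on the plasma cell list, so they are counted there again. Other lists share genes too, with Bach2 on the opposing and GC B lists and Klf2 on the opposing, egress and GC B lists. Pou2af1 averaged 129 CPM in WT Tfh and 1290 CPM in WT GC B samples, and the part of B cell RNA in its Tfh value was not tested. Of 17 regulators that oppose Tfh differentiation, 5 were higher and 4 lower (median 0.09), shares close to those of all genes, among them the repressor Bach2 (-3.61), Runx2 (2.30) and Klf2 (-1.71), which maintains S1pr1. Of 12 Tfh effector genes, 11 were higher and none lower (median 2.40), with the cytokines Il21 (7.18) and Il4 (6.20), Sostdc1 (9.03) and Cxcr5 (5.88) ahead. The proteins of Cxcr5 and Pdcd1, both on that list, defined the gates, so their place in the count was set by the sort. Of 10 egress and T zone genes, 2 were higher and 7 lower (median -1.52), among them Il7r at -4.60, Ccr7 at -3.50 and Cd44 at 2.30. In S1PR4-/- mice the counts, higher and lower, were 8 and 3 of 18, 4 and 4 of 17, 11 and 0 of 12, and 2 and 7 of 10, where 22.3% of all genes were higher and 21.1% lower.

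Genes of GC B and plasma cells were also called in that T cell comparison, with 10 of 15 GC B regulators higher and 4 lower in WT (median 2.06), Pax5 at 5.23 and Mef2b at 5.16, and 9 of 9 plasma cell genes higher (median 2.26), Mzb1 at 3.93 and Jchain at 3.54, against 22.8% of all genes higher and 20.4% lower. B cell markers summed to more in Tfh than in non-Tfh samples, as given above, and their part was not tested. Between genotypes, where 0.496% of all genes passed in Tfh and 0.114% in non-Tfh cells, 4 of 9 plasma cell genes were lower in S1PR4-/- Tfh cells, Mzb1 (-4.35), Jchain (-3.64), Fkbp11 (-2.46) and Derl3 (-1.88), and Mzb1 was lower in non-Tfh cells (-3.77). No regulator that promotes or opposes Tfh differentiation passed between genotypes in any population. Of the egress list S1pr4 alone passed, in all 4, and as the deleted gene its call was set in advance by the knockout.

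In WT GC B against non-GC B cells, where 24.8% of all genes were higher and 23.1% lower, 9 of 10 plasma cell genes were higher and none lower (median 2.30), with Tnfrsf17, the BCMA receptor gene, at 5.85, Jchain at 5.24 and Derl3 at 4.89. Of 16 GC B regulators, 5 were higher and 3 lower (median -0.09), near the shares of all genes, with Mybl1 at 6.81, Mef2b at 5.18 and the methyltransferase gene Ezh2 at 2.59. Of 10 egress genes, 8 were lower and 1 higher (median -2.13), with S1pr1 at -2.61 and Klf2 at -2.45. Of the Tfh regulators, 2 of 18 promoting genes were higher and 8 lower, and 3 of 13 opposing genes were higher and 4 lower, led by Egr3 (-2.46) and Id2 (2.53). Bhlhe41, the paralog of Bhlhe40, was higher in GC B cells (1.71), while Bhlhe40 did not pass. In S1PR4-/- mice 7 of 10 plasma cell genes, 5 of 16 GC B regulators and 1 of 8 egress genes were higher, and 0, 2 and 6 were lower, against 25.3% and 22.9% of all genes.

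Over all 45 samples, the genes whose log2 CPM was most like each of the 10 are given as a description, with Pearson's r over samples that share populations and depth. For Bcl6 they were Map4k1, Dynlt3 and Ikzf3 (r = 0.96 each), and for Prdm1 Ankrd55, Arhgef39 (0.88 each) and Tent5c (0.87). Tcf7 was most like Trac, Trbv13-2 and Trat1, T cell receptor genes and an adaptor of that receptor, with r of 0.996, 0.996 and 0.995. Maf was most like P2rx7, Dennd2d and Cd82 (0.98 each), Lef1 like Ms4a6b, Leprotl1 and Slc12a7 (0.99 each), and Batf like Npas2, Mrps6 and Aebp2 (0.98 each). Tox was nearest to Lcp2, Adk and Ckb (0.97 each), Tox2 to Acot7, Prdx2 and Maz (0.97 each), Ascl2 to Gm13528, Akr1b8 and Gm2762 (0.98 each), and Bhlhe40 to Cyfip1, Cxcr5 and Smim3 (0.94, 0.93 and 0.93). Among the 10, Tcf7 and Lef1 were most alike (0.97), then Maf and Batf (0.95), and Bcl6 and Lef1 least (-0.81).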

How the data were processed

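The submitters' processing notes and the methods name Cutadapt 2.10 for trimming, STAR 2.5.3 for alignment to mm10, Picard for duplicates and RSEM 1.3.0 for quantification. The deposited values are RSEM's expected counts for each gene, without scaling, and 8.83% of them are not whole. The table matched GENCODE M21, whose coordinates are used, although the methods name another release. Samples were grouped by their labels, and all 45 were used.

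Counts were rounded, filtered by filterByExpr, normalized by TMM and tested with edgeR 4.0.16 (quasi-likelihood) in R 4.3.3, each pair of groups in its own fit on all genes that passed the filter. Adjusted p is the Benjamini-Hochberg value over those genes. A gene passed at an adjusted p under 0.05 and a fold change over 1.5, or at the adjusted p alone for interactions and the order of populations. DESeq2 1.42.0, the tool the methods name, was an alternative. The fits were tested on simulated data. CPM come from 1 fit of all groups. The log2 ratios were compared by exact permutation.

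The 10 genes, the lists and the tests were chosen with earlier results of these data known. All 10 are named, with S1pr4, the 3 genes most like each one, and at most 4 genes a list, ranked by the size of their change among those that passed and averaged 1 CPM or more. Some genes that this rule names are not reported here. The methods give 6 mice of each genotype for the sorted populations, and p-values measure the spread between samples. Equal replicate numbers were not used as pairs in the main tests, since in no comparison did every same-numbered pair correlate above 0.1. Even so, every S1PR4-/- Tfh sample was most like the non-Tfh sample of its own number, as were WT Tfh replicates 2 to 5. WT GC B replicates 1 to 4 were likewise most like the non-GC B sample of their own number, and no S1PR4-/- GC B sample was. Whether samples of equal number came from the same mouse is not given in the sources used here. The main tests treat samples as independent, which mice shared between populations would break. The alternatives covered normalization, filter, test, block, marker scores, sex and leaving out samples. Intervals on counts cover counting error only. Promoter windows of Maf, Tox and Bhlhe40 were not used.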

Additional observations from a re-analysis of the deposited data

Results flagged for a closer look

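In 6 of 66 sets of 1 gene in 1 group, 1 sample stood apart from the others, where chance gives about 1 in 20. The value given is the gap to the nearest sample divided by the range of the group. Bcl6 in WT non-GC B replicate 3 was at 168 CPM, with the others at 113 to 124 (0.765). Maf in WT Tfh replicate 1 was at 120.3 CPM, with the others at 90.8 to 96.3 (0.790). Lef1 in WT GC B replicate 2 was at 5.80 CPM, with the others at 2.03 to 2.79 (0.700). Tox2 in WT non-Tfh replicate 4 was at 0.397 CPM, with the others at 3.03 to 7.99 (0.666). Prdm1 was listed at 0 in WT non-GC B replicate 5, with the others at 1.79 to 3.51 CPM (0.840), and in S1PR4-/- non-GC B replicate 1, with the others at 1.10 to 1.95 CPM (0.844).

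The step from non-Tfh to Tfh cells differed from the step from non-GC B to GC B cells in WT mice for 6 of the 10 genes by edgeR's interaction term, given as T cell minus B cell difference on the log2 scale. It was 1.17 for Bcl6, 1.70 for Batf, 3.62 for Bhlhe40 and 5.77 for Maf, and -3.29 for Prdm1 and -6.87 for Tox. The lineages were also sorted on different days, which cannot be told apart from lineage.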

How the results depend on the processing

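In Tfh against non-Tfh cells 8 to 9 of the 10 genes passed without any single sample in both genotypes, in GC B against non-GC B cells 5 to 6, between genotypes 0, in the test of the WT steps 6, and 20 to 22 neighbour pairs of the order. With all 8 groups in one fit, 8 genes passed for S1PR4-/- GC B cells. With the plasma cell score as a covariate, 2 passed for WT GC B cells, and 442 of all genes in place of 6372. DESeq2 called 1 of the 10 in non-GC B cells between genotypes. Of all genes, the genotype call counts were 67 in Tfh cells and 190 by adjusted p alone, 242 by DESeq2, 10 with the other-lineage, 6 with the plasma cell, 143 with the regulatory T cell and 157 with the sex term, 126 with a term for replicates 1 to 3, 153 with all groups in one fit, and 15 to 117 without single samples. In non-Tfh cells they were 15, and 31 by adjusted p alone, 62 by DESeq2, 8, 9 and 7 with the plasma cell, regulatory T cell and sex terms, and 11 to 27 without single samples. In GC B cells they were 8, and 17 by DESeq2. In non-GC B cells they were 7, and 21 by DESeq2 and 25 with all groups in one fit. By adjusted p alone, 9262 genes (WT) and 9468 (S1PR4-/-) passed between Tfh and non-Tfh cells. The difference of genotype effects was called for 2 genes in T cells, for 1 by total counts, 79 by DESeq2, 10 with the replicate block and 0 to 6 without single samples, and for 0 in B cells, 5 by DESeq2, 5 with all groups in one fit and 0 to 1 without single samples.

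Same-numbered samples deviated together only in part, so the replicate block is given here once. In S1PR4-/- Tfh cells every sample correlated best with the non-Tfh sample of its own number. The same held for WT Tfh replicates 2 to 5, and for WT GC B replicates 1 to 4 with non-GC B samples. With replicate pairing the Bcl6 to Prdm1 ratio differed by 1.28 and 1.25 (Tfh, WT and S1PR4-/-) and -4.30 and -5.73 (GC B), with adjusted p = 0.167, 0.167, 0.167 and 0.2 (exact sign-flip permutation), where 4 to 6 pairs allow little. Without single samples the ratio between genotypes ran from -0.36 to 0.061 in Tfh, -0.16 to 0.00346 in non-Tfh and -0.49 to 2.55 in non-GC B cells.

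Some values that did not pass changed sign, on the log2 scale. Between genotypes in GC B cells, Prdm1 was -0.27 with the replicate block, -0.24 with the other-lineage score and -0.24 with the replicate term, and Tcf7 -0.010 with the plasma cell score. In Tfh cells without S1PR4-/- replicates 3 and 6, Ascl2 was -0.32, Bcl6 -0.25 and Tox -0.044, Bcl6 was -0.088 with sex, and with the other-lineage score Lef1 was 0.035, Prdm1 -0.44 and Tcf7 0.038. In non-Tfh cells with the other-lineage score Maf was -0.50, Prdm1 -0.30, Tcf7 0.057 and Tox2 -0.38, with the plasma cell score Maf was -0.065, Prdm1 -0.12 and Tox2 -0.18, with the regulatory T cell score Bhlhe40 was -0.15, Maf -0.27, Prdm1 -0.16 and Tox2 -0.16, and Prdm1 was -0.081 with sex. In non-GC B cells Maf was -0.066 with the block and -0.11 with sex. With the plasma cell score, the GC B difference was 1.48 for Bhlhe40 and 2.095 for Tcf7 in WT and 0.19 for Tcf7 in S1PR4-/- mice. The GC B minus non-GC B genotype effect of Bhlhe40 was -1.46e-05 by total counts. Without single samples, the ranges that crossed 0 were as follows. Between genotypes they were, in GC B cells, -0.20 to 0.61 for Prdm1 and -0.14 to 0.23 for Tcf7, in Tfh cells -0.078 to 0.14 for Bcl6 and -0.054 to 0.025 for Tcf7, in non-GC B cells -0.25 to 0.049 for Lef1 and -0.30 to 0.31 for Maf, and in non-Tfh cells -0.13 to 0.15 for Prdm1, -0.095 to 0.00446 for Tcf7 and -0.041 to 0.025 for Tox. For the difference of genotype effects they were, in B cells, -0.18 to 0.00516 for Batf, -0.11 to 0.23 for Bhlhe40, -0.48 to 0.00393 for Tcf7, -2.01 to 1.14 for Tox and -1.40 to 4.59 for Tox2, and in T cells -0.025 to 0.22 for Bcl6, -0.043 to 0.30 for Prdm1 and -0.013 to 0.078 for Tcf7. The difference of WT steps for Tcf7 ran from -0.046 to 0.46. Marker scores, sex, the replicate term and the 2 left-out samples were chosen after seeing the data where they are not in the design, and no cause was tested.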
